A study of Mus musculus with 2 samples.

Results

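Plaur, Plau, Plat, F3, Thbs1, Timp1, Mmp14, Cd44 and Spp1, 9 genes of the urokinase system and of matrix remodelling, were followed in single liver cells of mice that carried an NRAS transgene. They were taken by symbol from the 31053 genes of the table, and all 9 were found. The rule names symbols and uses no measured value, but the genes were picked with earlier results of these data known, so their counts are not those of an unselected list. They were described in hepatocytes grouped by how much Nras each cell held, and then across the other cell types in the same library.

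The livers came from 3 female C57BL/6 (BL6) mice, injected at 6 to 8 weeks of age, and cells were collected on day 6. Hydrodynamic tail-vein injection, a rapid injection of a large volume, delivered Sleeping Beauty transposons to a subset of hepatocytes, together with the SB13 transposase that inserts them into the genome. The transposons carried the strong CAGGS promoter, NRAS, an internal ribosome entry site and the yellow fluorescent protein mVenus. In 2 mice NRAS was the oncogenic form NRAS(G12V). In 1 mouse it was NRAS(G12V/D38A), altered in addition in the loop through which RAS meets its effectors, so every mouse carried a transgene and there was no mouse without one. The cells of each mouse were marked by a hashtag (an antibody with a DNA barcode) and sorted by mVenus, and 1 library of transcript 3′ ends was made from the pool. The deposited table gives hashtag 1 to the D38A mouse and hashtags 2 and 3 to the G12V mice, whereas the methods of the study give hashtags 1 and 2 to G12V and hashtag 3 to D38A. Mice are therefore named by hashtag, and no comparison of the NRAS forms was made.

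The library held 142080194 UMIs (unique molecules) in 13151 barcodes, of which 13141 also occurred in the hashtag library. After filtering, 10220 cells were kept, and 2236 of them were hepatocytes with at least 10000 UMIs. A hepatocyte was a cell in which Alb, Apoa1, Apoa2, Ttr and Fgb, which encode secreted liver proteins, gave at least 1% of its UMIs. The mouse Nras row takes up reads of the construct and reached 1427 UMIs in a cell, so Nras counts per 1e+06 UMIs (CPM) ranked the hepatocytes into baseline (under 200), low (200 to 1000), intermediate (1000 to 3000) and high (3000 or more). These bins held 1540, 386, 176 and 134 cells. Hashtag 1 contributed 143, 41, 24 and 23 of them, hashtag 2 contributed 757, 207, 93 and 72, hashtag 3 contributed 20, 2, 1 and 2, and the rest had no hashtag call. The median UMI count per cell was 35258, 45402, 59508 and 53078 from baseline to high, and the median share from the 5 liver genes was 7.73%, 5.69%, 3.77% and 3.49%, so depth rose and liver transcripts fell along the same axis.

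Urokinase, encoded by Plau, and tissue-type plasminogen activator, encoded by Plat, cut plasminogen, which the liver makes, into plasmin, a protease that dissolves fibrin and degrades matrix. Plaur encodes the receptor that holds urokinase at the cell surface and is known as a surface protein of senescent cells. Mmp14 encodes a membrane-bound metalloproteinase, Timp1 a secreted inhibitor of metalloproteinases, F3 tissue factor, the starter of coagulation, and Thbs1, Spp1 and Cd44 encode thrombospondin 1, osteopontin and a receptor for hyaluronan and osteopontin.

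Promoters of 6 of the 9 genes were found in the RefSeq promoter table (build GRCm38.p6), each window running from 250 bases before the start of transcription to 50 after it. The windows of Plaur and F3 held the AP-1 motif TGANTCA, and 4 of the windows are shown because their genes behaved differently in the results below, Plaur with a steep rise over Nras, F3 and Timp1 with smaller ones and Mmp14 with no change past the threshold. Capitals mark matches, read on both strands, to the AP-1 motif, to CATTCC (TEAD) or to CCGGAAG (ETS), and the 3 motifs do not overlap in these windows.
Plaur, chr7:24462233-24462532, plus strand: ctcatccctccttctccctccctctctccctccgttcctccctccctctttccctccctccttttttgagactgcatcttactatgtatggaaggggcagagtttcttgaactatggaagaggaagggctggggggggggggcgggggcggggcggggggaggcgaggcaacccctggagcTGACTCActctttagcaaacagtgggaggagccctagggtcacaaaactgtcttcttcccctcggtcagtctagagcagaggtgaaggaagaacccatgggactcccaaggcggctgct
F3, chr3:121723287-121723586, plus strand: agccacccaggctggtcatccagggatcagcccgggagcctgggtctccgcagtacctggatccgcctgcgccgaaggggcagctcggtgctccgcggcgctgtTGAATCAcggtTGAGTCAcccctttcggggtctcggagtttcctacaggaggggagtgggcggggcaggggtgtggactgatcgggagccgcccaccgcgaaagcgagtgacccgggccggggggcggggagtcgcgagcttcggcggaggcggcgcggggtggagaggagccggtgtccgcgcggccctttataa
Timp1, chrX:20869916-20870215, plus strand: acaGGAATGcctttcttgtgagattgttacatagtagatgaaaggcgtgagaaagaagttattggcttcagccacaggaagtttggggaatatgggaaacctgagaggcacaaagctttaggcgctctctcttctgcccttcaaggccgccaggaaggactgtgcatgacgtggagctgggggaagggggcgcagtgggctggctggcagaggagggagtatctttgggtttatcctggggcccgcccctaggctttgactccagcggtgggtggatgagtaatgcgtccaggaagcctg
Mmp14, chr14:54431348-54431647, plus strand: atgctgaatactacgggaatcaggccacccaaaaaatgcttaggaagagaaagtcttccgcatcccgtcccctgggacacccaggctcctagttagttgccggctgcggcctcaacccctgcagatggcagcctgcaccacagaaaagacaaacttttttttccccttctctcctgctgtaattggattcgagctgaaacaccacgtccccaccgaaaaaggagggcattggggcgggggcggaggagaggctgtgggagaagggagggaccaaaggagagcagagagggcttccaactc
The Plaur window held 1 AP-1 match, TGACTCA, whose first base lay at -69 relative to the start, and the F3 window held 2, TGAATCA at -146 and TGAGTCA at -135. The Timp1 window held 1 TEAD match, GGAATG at -247. Spp1 held 1 ETS match, CTTCCGG at -234, in the first of its 2 windows, and the windows of Cd44 and Mmp14 held none of the 3 motifs. Of all 32851 promoter windows in the table, 7.81% held the AP-1 motif, 14.7% the TEAD motif and 8.86% the ETS motif. These matches are descriptions of letters and not of binding.

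Along the Nras axis, 7 of the 8 members that could be tested were higher in high than in baseline Nras hepatocytes, and none was lower. Plaur had a fitted difference of 3.68 on the log2 scale, Cd44 of 2.64, Plat of 2.63, Spp1 of 2.57, Thbs1 of 2.15, Timp1 of 1.53 and F3 of 1.25, while Mmp14 stood at -0.01. Plau, the ligand of the receptor, was too low to be tested in hepatocytes. Of all 10638 genes tested in the same fit, 12.8% were called higher and 12.6% lower, and the median of all genes was -0.02 against 2.36 for the 8 members. The fit was edgeR's quasi-likelihood test on UMI sums per hashtag and bin, with hashtag as a block and Benjamini-Hochberg adjustment over all genes. The low, intermediate and high bins entered for hashtags 1 and 2 only, so each difference rests on 2 mice, with 3 residual degrees of freedom.

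**Figure D1:**
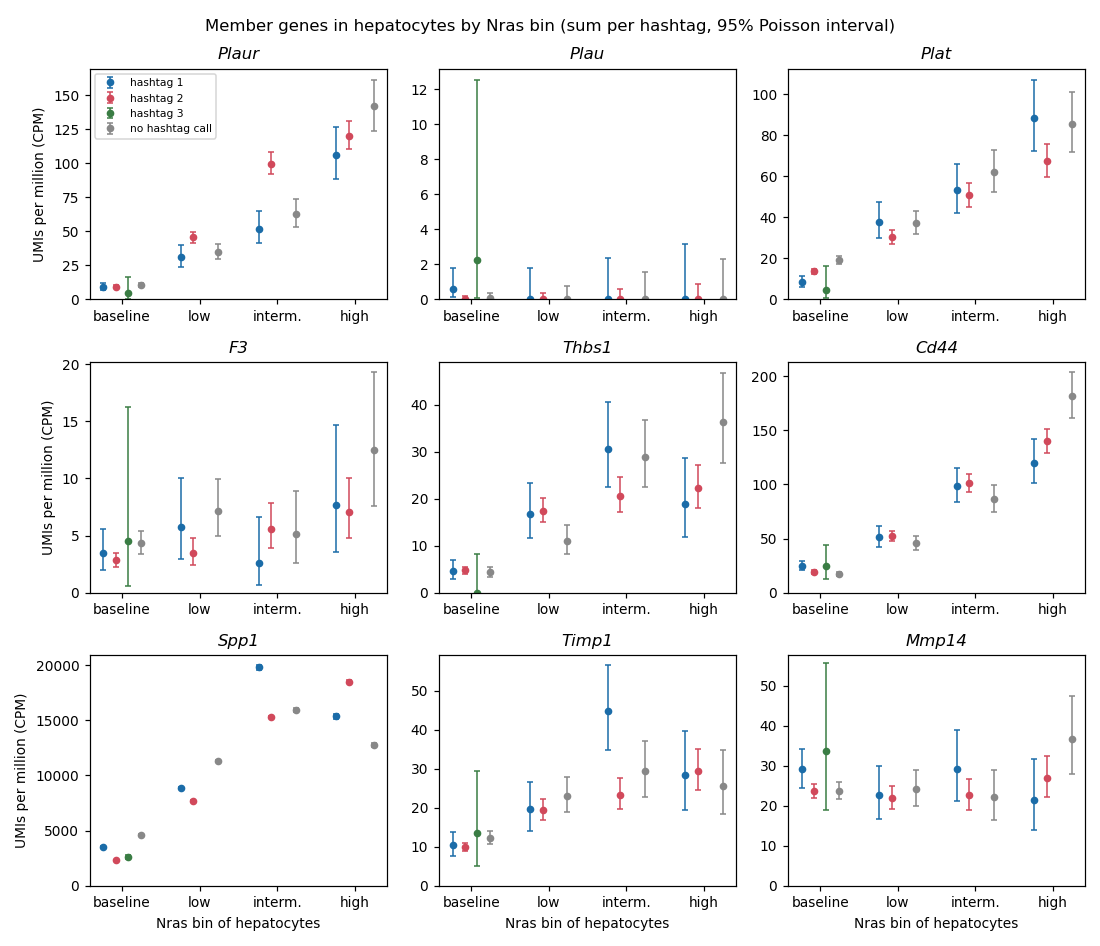
CPM of each member (vertical axis, linear from 0) in baseline, low, intermediate and high Nras hepatocytes, as 1 point per hashtag and for cells with no hashtag call. Bars are exact Poisson 95% intervals, and sums of under 5 cells are not drawn. Plaur, Plat and Cd44 climb from bin to bin in every series shown, Spp1 levels off between intermediate and high, and Mmp14 stays between 21.4 and 36.8 CPM.

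The receptor gene Plaur (ENSMUSG00000046223, chr7:24462484-24475968, plus strand) was at 9.17 CPM in hashtag 1 and 9.18 CPM in hashtag 2 at baseline. It was at 31.2 and 45.5 CPM in the low bin, 51.9 and 99.7 CPM in the intermediate bin and 106 and 120 CPM in the high bin. In both mice the bins stood in the order of Nras, and no bin overlapped the next between the mice. The ratio of high to baseline was 11.6 in hashtag 1, with a 95% interval of 8.18 to 16.7 for counting error, and 13.1 in hashtag 2, with an interval of 11.3 to 15.2. In the fit the difference was 3.68 ± 0.197 (SE, n = 2 mice in the high bin; edgeR adjusted p = 1.56e-06), a 12.8-fold rise. Here and below, the SE is the size of the fitted difference divided by the square root of the test's F statistic. It is not a standard error over mice. Cells with no hashtag call, which entered no fit, went from 10.4 to 142 CPM. The 2 high Nras cells of hashtag 3 held 11 Plaur UMIs, or 113 CPM, against 4.50 CPM in its 20 baseline cells, which rests on 2 UMIs. With baseline cells matched to the high bin in UMIs per cell the difference was 3.23, and with every cell thinned to 10000 UMIs it was 3.79. With a hepatocyte gate of 10% it was 2.40 and the call was lost (edgeR adjusted p = 0.0638).

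Plau (ENSMUSG00000021822, chr14:20836660-20843385, plus strand), the urokinase gene itself, was almost absent from these hepatocytes. All 2236 cells together held 7 Plau UMIs, and all 7 were in the baseline bin. The high bin held 0 of 7129879 UMIs, which allows a level of up to 0.421 CPM. The baseline bin held 55800079 UMIs, so 7 Plau UMIs there against 0 here cannot show a change with Nras. In the bin with the most Plaur, its ligand was thus not detectable at this depth.

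Plat (ENSMUSG00000031538, chr8:22757727-22782844, plus strand), the other plasminogen activator, was at 8.35 CPM in hashtag 1 and 13.7 CPM in hashtag 2 at baseline. In the high bin it was at 88.3 and 67.3 CPM. The groups did not overlap, and the low bin (38.0 and 30.5 CPM) and the intermediate bin (53.2 and 50.7 CPM) lay between them. The ratio was 10.6 (7.29 to 15.6) in hashtag 1 and 4.93 (4.23 to 5.73) in hashtag 2, so the intervals of the 2 mice did not meet. The fitted difference was 2.63 ± 0.226 (SE; edgeR adjusted p = 2.41e-05), and cells with no hashtag call went from 19.2 to 85.5 CPM.

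Cd44 (ENSMUSG00000005087, chr2:102811141-102901665, minus strand), the hyaluronan receptor, was at 24.6 CPM in hashtag 1, 19.0 CPM in hashtag 2 and 24.8 CPM in hashtag 3 at baseline. In the high bin it was at 120 CPM in hashtag 1 and 140 CPM in hashtag 2. The high and baseline values did not overlap, and the low and intermediate bins of both mice agreed closely, at 50.9 and 52.0 CPM and at 98.6 and 101 CPM. The fitted difference was 2.64 ± 0.137 (SE; edgeR adjusted p = 1.47e-06). The 2 high Nras cells of hashtag 3 held 23 Cd44 UMIs, or 235 CPM.

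Spp1 (ENSMUSG00000029304, chr5:104435118-104441050, plus strand), a ligand of Cd44 and of integrins, was already abundant at baseline, at 3522, 2348 and 2607 CPM in hashtags 1, 2 and 3. It was at 8850 CPM in hashtag 1 and 7679 CPM in hashtag 2 in the low bin. In the intermediate bin it was at 19814 and 15308 CPM and in the high bin at 15376 and 18506 CPM, so the 2 top bins overlapped between mice. The ratio of high to baseline was 4.37 in hashtag 1, 7.88 in hashtag 2 and 2.77 in cells with no hashtag call. The fitted difference was 2.57 ± 0.147 (SE; edgeR adjusted p = 2.34e-06). It was 2.03 with adjusted p = 0.0838 when the Nras limits were set at 100, 500 and 2000, the only one of 15 alternatives under which the call was lost.

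Thbs1 (ENSMUSG00000040152, chr2:118111876-118127133, plus strand), the thrombospondin gene, was at 4.69 CPM in hashtag 1 and 4.73 CPM in hashtag 2 at baseline. In the high bin it was at 18.9 and 22.3 CPM. The low bin already reached 16.8 and 17.4 CPM, and the intermediate bin of hashtag 1, at 30.5 CPM, was above both high bins. The fitted difference of high and baseline was 2.15 ± 0.227 (SE; edgeR adjusted p = 8.64e-05). It moved most of the called members when baseline cells were matched in UMIs per cell, to 1.40 ± 0.265 (adjusted p = 0.00467).

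F3 (ENSMUSG00000028128, chr3:121723537-121735048, plus strand), the tissue factor gene, was the lowest of the called members. It was at 3.46 CPM in hashtag 1 and 2.82 CPM in hashtag 2 at baseline and at 7.72 and 7.04 CPM in the high bin, which rest on 9 and 30 UMIs. The Poisson interval of hashtag 1 in the high bin reached down into its baseline interval. The fitted difference was 1.25 ± 0.383 (SE; edgeR adjusted p = 0.0369). The call was lost under 6 of 13 alternatives, among them DESeq2 (adjusted p = 0.324) and the fit without the hashtag block (adjusted p = 0.0517).

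Timp1 (ENSMUSG00000001131, chrX:20870166-20874735, plus strand), the inhibitor, was at 10.4, 9.90 and 13.5 CPM in hashtags 1, 2 and 3 at baseline. In the high bin it was at 28.3 CPM in hashtag 1 and 29.5 CPM in hashtag 2, above all baseline values. The low bin was at 19.7 and 19.3 CPM and the intermediate bin at 44.8 and 23.4 CPM. In hashtag 1 the high bin was thus below the intermediate bin, with a ratio of 0.632 (counting interval 0.404 to 0.970). The fitted difference was 1.53 ± 0.236 (SE; edgeR adjusted p = 9.58e-04). Its gene lies wholly within Syn1, which is annotated on the opposite strand over all 4570 bases of Timp1.

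Mmp14 (ENSMUSG00000000957, chr14:54431612-54445364, plus strand), the membrane protease, gave the contrast to the rest. It was at 29.1 CPM in hashtag 1, 23.7 CPM in hashtag 2 and 33.8 CPM in hashtag 3 at baseline and at 21.4 and 27.0 CPM in hashtags 1 and 2 in the high bin, so the groups overlapped. The fitted difference was -0.01 ± 0.167 (SE; edgeR adjusted p = 0.983), and its adjusted p stayed between 0.851 and 0.996 over 15 alternatives. Cells with no hashtag call were at 23.8 CPM at baseline and at 36.8 CPM in the high bin, a ratio of 1.55 with a counting interval of 1.16 to 2.04, which is a value of cells of unknown mouse and was not tested over mice.

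The steps between neighbouring bins were tested one by one, and no test compared one member with another. From baseline to low, 6 members rose (Plaur, Thbs1, Spp1, Plat, Cd44 and Timp1), against 2.44% of all genes called higher and 2.95% lower at this step. Thbs1 and Plaur had the differences 1.84 ± 0.209 and 2.14 ± 0.197 there (SE; edgeR adjusted p = 0.00101 and 4.38e-04). From low to intermediate, Plaur, Cd44 and Spp1 rose, by 1.01 ± 0.180, 0.97 ± 0.134 and 1.09 ± 0.140 (SE; edgeR adjusted p = 0.0233, 0.00816 and 0.00651), against 0.912% of all genes called higher and 1.18% lower. Plat, Timp1 and Thbs1 did not pass there, at 0.66 ± 0.225, 0.63 ± 0.232 and 0.47 ± 0.206 (SE; edgeR adjusted p = 0.218, 0.249 and 0.344). From intermediate to high, no member passed edgeR's test in the main fit. In that step 0 of 10638 genes were called higher (0%) and 1 lower (0.0094%), while 583 had an unadjusted p under 0.05 and DESeq2 called 20. Plaur and Cd44 had fitted differences of 0.54 ± 0.176 and 0.40 ± 0.131 at that step (edgeR adjusted p = 0.740 and 0.759), against -0.03 ± 0.139 for Spp1 and -0.16 ± 0.221 for Thbs1. The calls at the single steps depended on the settings. With cells ranked by mVenus or with the other Nras limits, none of the 6 rises from baseline to low was called, and Timp1 was called under 6 of 15 alternatives. Over the 15 alternatives, the lowest fitted difference at this step was -0.63 for Cd44, -0.41 for Timp1 and -0.25 for Spp1. It was 0.87 for Plaur, 0.77 for Plat and 0.88 for Thbs1. With baseline cells matched to the high bin in UMIs per cell, the calls of Plat, Thbs1 and Timp1 from baseline to low were lost. That setting keeps 1 baseline cell for each high cell and does not match the low bin, so it is no control of depth for this step. From baseline to low, thinning ended the calls of Thbs1 and Timp1, and the 10% hepatocyte gate those of Plaur, Cd44 and Timp1. From low to intermediate, Plaur lost its call without the hashtag block and with the 10% gate. Cd44 lost it with thinning, the 10% gate and the other hashtag rule. Spp1 lost it with the other Nras limits and the 10% gate. At the same step, Plat was called under 3 of 15 alternatives and Timp1 under 1 of 15. From intermediate to high, Plaur, Plat and Cd44 were each called under 1 of 14 alternatives, with positive differences throughout. Spp1 was called there under 1 of 15, the 10% gate, and its fitted difference ranged from -0.15 to 2.25. Thbs1, Timp1, F3 and Mmp14 were not called at this step under any alternative.

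Finer classes of Nras, pooled over mice, showed where each rise began. Plaur was at 5.08 CPM in the 395 cells without an Nras UMI, 16.2 CPM in the 318 cells with 100 to 200 CPM of Nras, 58.1 CPM at 500 to 1000, 82.3 CPM at 1000 to 2000 and 126 CPM in the 73 cells with 5000 or more. Cd44 followed the same order, from 11.8 to 151 CPM, and Plat went from 6.33 to 82.1 CPM. For these 3 genes each of the 9 classes was above the one before. Spp1 was at 2192 CPM in the first class, 15825 CPM at 1000 to 2000 and 16674 CPM in the last. Timp1 stayed between 9.40 and 11.5 CPM in the 4 classes under 200 and was at 20.2 CPM in the fifth. F3 was at 11.7 CPM in the last class, with an interval above the 4.34 CPM of the class before. Median depth was 24295 UMIs per cell in the first class and 51802 in the last, and its part in these levels was not tested here.

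**Figure D2:**
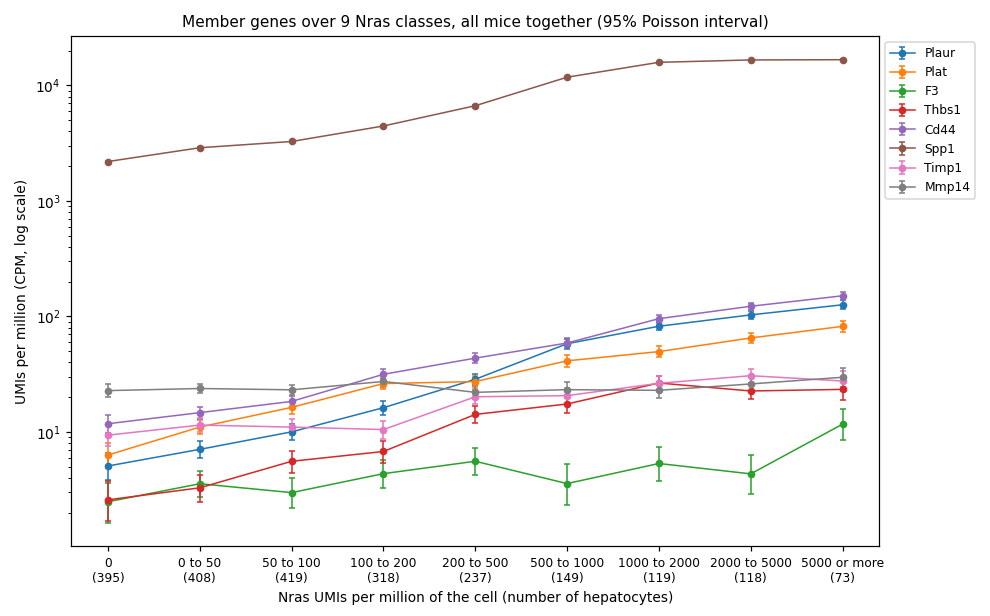
CPM on a log axis of 8 members (Plau is left out, with 7 UMIs in all) over 9 classes of Nras CPM per cell, with the number of hepatocytes under each class, all mice and uncalled cells together, and exact Poisson 95% intervals as bars. Plaur, Cd44 and Plat climb through all 9 classes, Spp1 is level over the last 3 (15825 to 16674 CPM), and Mmp14 stays between 22.0 and 29.8 CPM.

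Single cells carried more of the members together as Nras went up. With every cell thinned to 10000 UMIs, baseline cells held a mean of 1.47 of the 9 members, low cells 2.09, intermediate cells 2.83 and high cells 3.14. Cells with at least 3 members were 13.6% of baseline, 31.1% of low, 56.3% of intermediate and 67.2% of high cells. From baseline to high the share was 9.09%, 36.6%, 66.7% and 60.9% in hashtag 1 and 13.7%, 31.9%, 54.8% and 70.8% in hashtag 2. Between the intermediate and high bins it thus rose in hashtag 2 and not in hashtag 1, where the mean was 3.04 members in both. Spp1 was the member most often present at baseline, in 80.9% of cells, but at the same thinned depth it was also present in 86.0% of mature dendritic-like, 76.7% of conventional dendritic-like and 66.7% of endothelial-like cells. Cd44 was present in 74.4% of these mature dendritic-like, 64.4% of these conventional dendritic-like and 28.6% of these endothelial-like cells. A cell with 1 UMI of a member need not express it, and how much of the counts per cell at baseline came from free RNA was not tested.

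**Figure D3:**
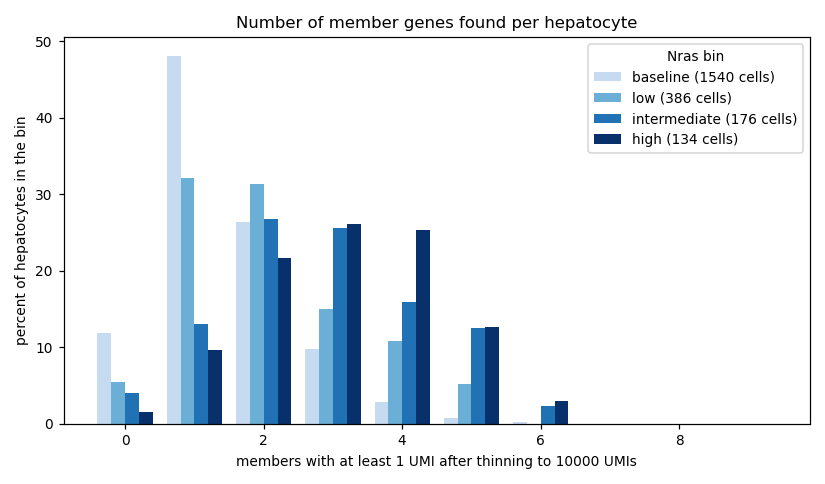
Percent of hepatocytes (vertical axis, from 0) by the number of members with at least 1 UMI after thinning to 10000 UMIs, for the 4 Nras bins. Baseline cells peak at 1 member and high Nras cells at 3 to 4, and no cell held more than 6 of the 9.

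Plaur itself was found in 6.49% of baseline cells and 55.2% of high cells after thinning (exact binomial 95% intervals 5.31% to 7.84% and 46.4% to 63.8%), and in 19.2% and 81.3% before it. Cd44 was found in 14.2% of baseline and 59.0% of high cells after thinning, and in 34.0% and 84.3% before it. For comparison, Plaur was present at the same thinned depth in 5.43% of 129 mature dendritic-like cells, 2.22% of 90 conventional dendritic-like cells and 14.3% of 21 endothelial-like cells (exact 95% interval 3.05% to 36.3%). Their median depths before thinning were 11639, 11935 and 11882 UMIs, against 35258 and 53078 in baseline and high hepatocytes. The share of baseline hepatocytes with Plaur lay within the range of these types, in which free RNA and own expression cannot be told apart, and is not read as expression. The share of high Nras cells was above the intervals of all 3 types. Among the 134 high cells, 51 held both Plaur and Cd44, where 43.6 would be found if the 2 were unrelated, and 33 held both Plaur and Plat, where 28.2 would be found. Among the 1540 baseline cells, 30 held both Plaur and Cd44, where 14.2 would be found. Both are counts over cells that differ in Nras within the bin, and they are given with no test.

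Other genes of the plasmin, integrin and matrix systems were taken from a list of 60 that holds no member. Of these, 45 could be tested, and 14 were higher, 8 lower and 23 did not pass the threshold between high and baseline cells (edgeR, background 12.8% higher and 12.6% lower). The median difference of the 45 was -0.04 on the log2 scale, near the median of all genes.

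Of the plasmin genes, Anxa2, S100a10 and Serpine2 rose and Plg and Serpinf2 fell. Anxa2 and S100a10, which together form a surface receptor for plasminogen and Plat, rose by 2.37 ± 0.119 and 1.56 ± 0.106 (SE; edgeR adjusted p = 1.40e-06 and 6.69e-06). Anxa2 stood at 259 and 229 CPM at baseline and at 1306 and 1207 CPM in the high bin of hashtags 1 and 2. Plg, the plasminogen gene, fell by 1.99 ± 0.219 (adjusted p = 1.13e-04), with 447 and 618 CPM at baseline and 153 and 117 CPM in the high bin of hashtags 1 and 2. Serpinf2, the inhibitor of plasmin, fell by 0.69 ± 0.179 (adjusted p = 0.0170). Serpine2, an inhibitor of plasminogen activators and thrombin, rose by 1.85 ± 0.386 (adjusted p = 0.00577).

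Of the coagulation genes, 3 fell and 3 rose. F7, the partner of tissue factor, fell by 2.54 ± 0.224 and F10, its substrate, by 2.70 ± 0.286 (SE; edgeR adjusted p = 2.81e-05 and 8.61e-05). F2, which encodes prothrombin, fell by 0.73 ± 0.141 (adjusted p = 0.00377). The membrane proteins Thbd and Procr, which act in the anticoagulant protein C pathway, and F2r, a thrombin receptor, rose by 2.08, 2.28 and 0.90 (adjusted p = 0.00630, 0.00431 and 0.0333), all from low levels of under 25 CPM in hashtags 1 and 2. Plg, F2, F7, F10, Serpinf2, Vtn and Fn1 are all made by hepatocytes for the blood, and they fell in the same bins in which the 5 liver genes of the gate went from a median of 7.73% to 3.49% of UMIs. The part of that general decline in these falls was not tested.

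Adhesion and matrix genes moved in both directions. Itga3, an integrin subunit for laminin, rose by 2.52 ± 0.125 (edgeR adjusted p = 1.40e-06), with 17.5 and 15.9 CPM at baseline and 96.9 and 93.6 CPM in the high bin of hashtags 1 and 2. Itgav and Itgb1, subunits of receptors for vitronectin, osteopontin and fibronectin, rose by 1.15 ± 0.169 and 0.82 ± 0.135 (adjusted p = 6.89e-04 and 0.00137). Vtn, the vitronectin gene, a ligand of the urokinase receptor, fell by 2.94 ± 0.214 (adjusted p = 1.00e-05), and Fn1, the fibronectin gene, fell by 0.78 ± 0.216 (adjusted p = 0.0238). Tnc, which encodes the matrix protein tenascin C, was at 1.22 and 0.157 CPM at baseline and at 25.7 and 6.33 CPM in the high bin of hashtags 1 and 2 (5.04 ± 0.821, adjusted p = 0.00131). Ezr, which links Cd44 to the cortex, rose by 1.74 ± 0.149, and Cd47, a receptor of Thbs1, rose by 0.69 ± 0.103 (adjusted p = 2.30e-05 and 7.42e-04). Of the proteases, Ctsl and Ctsd, lysosomal cathepsins, rose by 0.89 ± 0.102 and 0.65 ± 0.105 (adjusted p = 1.44e-04 and 0.00128), and Adamts1 fell by 1.79 ± 0.361 (adjusted p = 0.00462). Of the metalloproteinases that were too low to test, Mmp2, a substrate of Mmp14, Mmp3, Mmp7, Mmp10 and Mmp13 were at 0 in the baseline and high sums of hashtags 1, 2 and 3. Mmp9 and Mmp12 were at 0.0313 CPM each in the baseline sum of hashtag 2 and at 0 in the others.

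**Figure D4:**
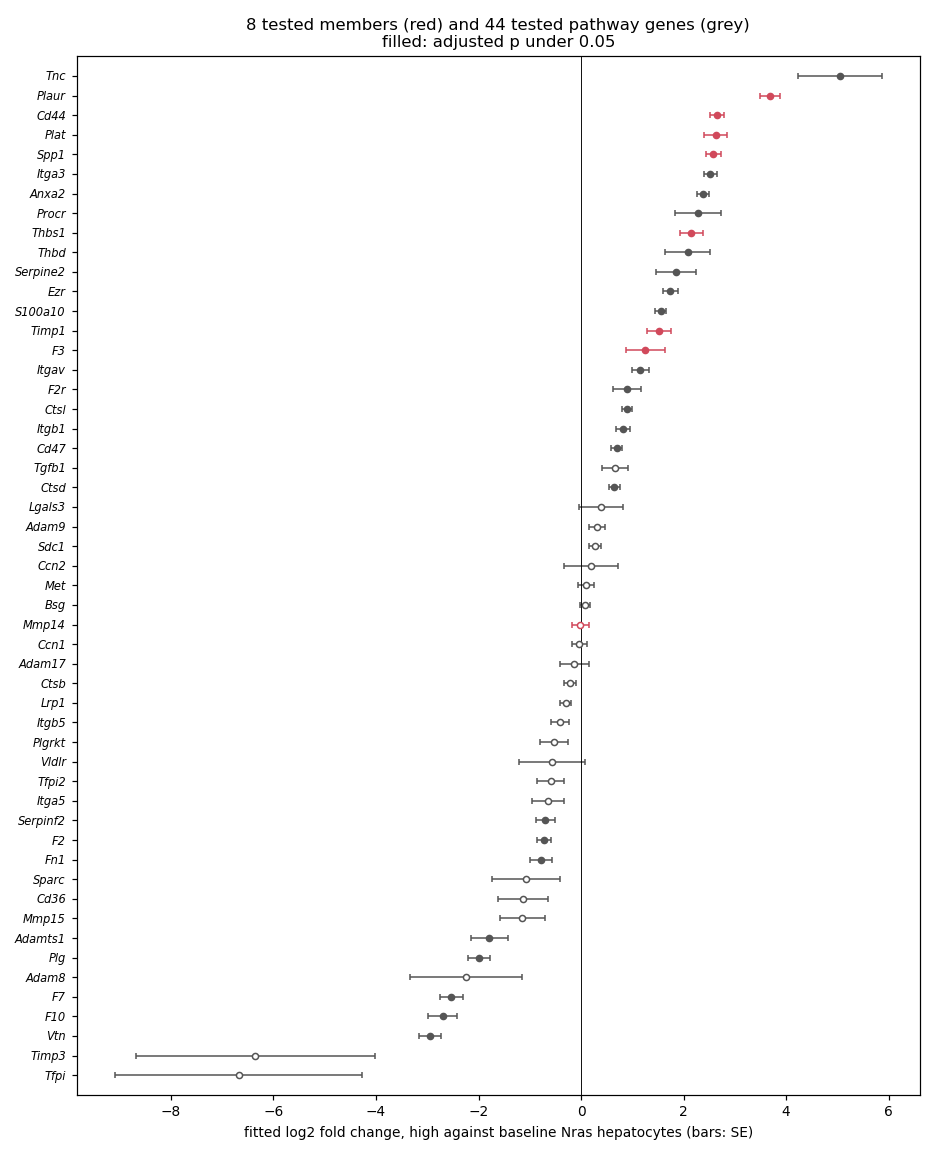
Fitted log2 difference of high and baseline Nras hepatocytes (horizontal axis, bars are SE) for the 8 tested members in red and 44 of the 45 tested genes of the wider list in grey, ordered by value. Filled points passed an adjusted p of 0.05. 7 red points lie above 1.2 and Mmp14 at -0.01, and Tfpi and Timp3 at the bottom are at 0 in the high bin of hashtags 1 and 2, so their fitted values are not bounds.

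Markers of other cell types within the hepatocyte sums were below their levels in the types themselves but not 0. In hashtags 1 and 2 the 5 plasmacytoid dendritic markers were the highest list. They were at 327 and 317 CPM in the high bin and at 320 and 279 CPM at baseline, against 8650 CPM in plasmacytoid dendritic-like cells. The 8 endothelial markers together were at 25.7 and 14.1 CPM in the high bin of hashtags 1 and 2 and at 140 and 19.9 CPM at baseline, against 15457 CPM in endothelial-like cells. The 8 macrophage markers were at 2.57 and 24.9 CPM in the high bin and at 1.02 and 6.74 CPM at baseline, against 20176 CPM in macrophage-like cells. The baseline sum of hashtag 3 had 1164 CPM of the endothelial markers. In hepatocytes with under 0.1% of UMIs from the markers of 11 other types, Plaur had a difference of 3.67, Cd44 of 2.79 and Plat of 2.55 (edgeR adjusted p = 1.68e-08, 9.60e-09 and 3.63e-07), and all 7 members were called.

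Outside hepatocytes, the members fell into different cells. A cell with under 1% from the 5 liver genes was given a type when it had at least 3 UMIs from at least 2 markers of 1 list and at least 2 times the UMIs of the next list. None of the lists held a member. There were 539 endothelial-like, 37 macrophage-like, 161 conventional dendritic-like, 336 mature dendritic-like, 74 T or NK-like and 42 B-like cells. Of 48 comparisons of a member with a type, each against high Nras hepatocytes, 33 passed edgeR's test over 24 sums by hashtag and group, 30 lower and 3 higher in the other type. The 48 include Plau, and 1 of the 3 higher calls is its call in macrophage-like cells, which supports nothing for the reason given below. The endothelial-like cells came mostly from hashtag 3, with 463 of 539, while the high Nras hepatocytes came from hashtags 1 and 2.

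**Figure D5:**
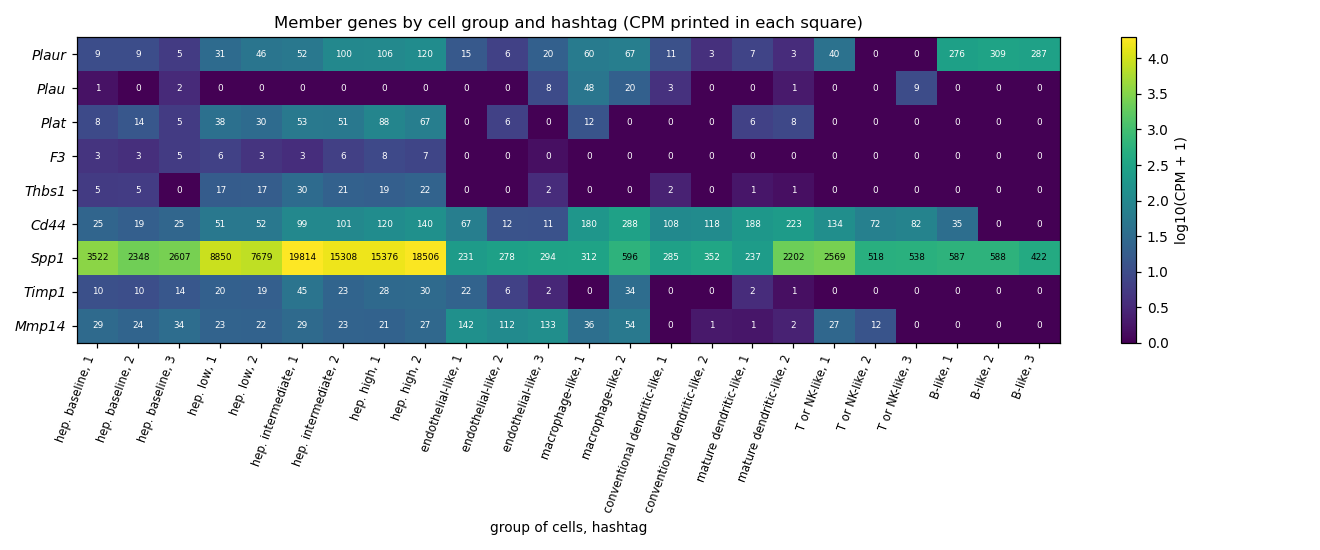
Level of the 9 members (rows) in each sum by hashtag of hepatocyte bins (left) and of other cell types (right), coloured by log10(CPM + 1) with the CPM printed in each square. Sums hold at least 5 hepatocytes or 10 other cells. Mmp14 is highest in the endothelial-like columns, Plaur in the B-like columns, Plau in the macrophage-like columns and Spp1 in the hepatocyte columns of higher Nras.

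Mmp14 was highest in endothelial-like cells. It was at 142 CPM in hashtag 1, 112 CPM in hashtag 2 and 133 CPM in hashtag 3 in endothelial-like cells, above all hepatocyte sums. The difference from high Nras hepatocytes was 1.55 ± 0.295 (SE; edgeR adjusted p = 3.72e-04), and it had adjusted p = 0.152 when hashtag 1 was left out. In this type 1 member was higher and 6 were lower, against 18.2% and 18.1% of all 10870 genes tested. Macrophage-like cells had 36.0 and 53.6 CPM of Mmp14 in hashtags 1 and 2, which did not differ past the threshold from high Nras hepatocytes (edgeR adjusted p = 0.638). Mature dendritic-like, conventional dendritic-like and B-like cells had 4, 1 and 0 Mmp14 UMIs in their called hashtags.

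Plau, with 0 UMIs in high Nras hepatocytes, was found in macrophage-like cells. It was at 48.0 CPM in hashtag 1, 20.1 CPM in hashtag 2 and 24.0 CPM in the 7 cells of hashtag 3 (too few to enter the fit), from 8 UMIs in all. That is 29.2 CPM over all 37 cells, with a Poisson 95% interval of 12.6 to 57.5 CPM, against the 0.421 CPM that 0 counts allow in high Nras hepatocytes. Plau passed the filter on low counts only through types in which it was found, so its call in macrophage-like cells is given as a count and supports nothing. Endothelial-like cells held 17 Plau UMIs, all in hashtag 3, and were not called (adjusted p = 0.380). Macrophage-like cells had 3 members lower than high Nras hepatocytes, against 10.8% of all genes lower and 10.7% higher. The call of Plau was the only one higher.

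Plaur was low in endothelial-like cells, at 14.9, 5.90 and 19.9 CPM in hashtags 1, 2 and 3, and lower than in high Nras hepatocytes by 3.48 ± 0.505 (SE; edgeR adjusted p = 1.55e-05). Macrophage-like cells had 60.0 and 67.0 CPM in hashtags 1 and 2 (adjusted p = 0.0707), a comparison that passed when hashtag 3 was left out and with no filter on low counts. B-like cells had 276, 309 and 287 CPM in the 3 mice, from 8, 10 and 17 UMIs, above the high Nras hepatocytes in every mouse but not called (0.58 ± 0.465, adjusted p = 0.436). In B-like cells 0 members were higher and 4 lower, against 4.79% and 13.1% of all genes. Plaur was found in 20 of the 42 B-like cells, which had a median of 2135 UMIs. Levels were low in conventional dendritic-like cells, at 10.8 and 2.88 CPM, and mature dendritic-like cells, at 6.59 and 2.55 CPM, both lower than high Nras hepatocytes (edgeR adjusted p = 1.63e-06 and 2.91e-07). T or NK-like cells held 3 Plaur UMIs, all in 1 cell. Among the types with enough cells for a sum, Plaur in B-like and macrophage-like cells did not differ past the threshold from high Nras hepatocytes, and it was lower in the other 4.

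Cd44 was shared with immune cells. Mature dendritic-like cells had 188 and 223 CPM in hashtags 1 and 2 and were higher than high Nras hepatocytes by 1.19 ± 0.325 (SE; edgeR adjusted p = 0.00481), a call that was lost when hashtag 1 or hashtag 2 was left out (highest adjusted p = 0.329). This type had 1 member higher and 6 lower, against 25.5% and 20.6% of all genes. Macrophage-like cells had 180 and 288 CPM (adjusted p = 0.516) and conventional dendritic-like cells 108 and 118 CPM (adjusted p = 0.986), so neither differed past the threshold from the 120 and 140 CPM of high Nras hepatocytes. T or NK-like cells had 134, 72.3 and 82.0 CPM in the 3 mice (adjusted p = 0.156). Cd44 was lower in endothelial-like cells, at 67.2, 11.8 and 10.9 CPM, and in B-like cells, where 1 UMI was found.

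Spp1 was lower in all 6 types than in high Nras hepatocytes, with adjusted p between 3.66e-07 and 5.04e-04 in edgeR. It lay between 231 and 596 CPM in 13 of the 15 sums of other types. The exceptions were mature dendritic-like cells of hashtag 2, at 2202 CPM, where 1 cell held 3645 of 4310 UMIs, and T or NK-like cells of hashtag 1, at 2569 CPM, where 1 cell held 164 of 192. The lowest baseline hepatocyte sum, at 2348 CPM, was above the other 13. At these levels, shared by B-like and endothelial-like cells, free RNA and own expression of Spp1 cannot be told apart.

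Plat, Thbs1, Timp1 and F3 had few UMIs in the 6 other types. Plat had 22 UMIs in 335 mature dendritic-like cells with a hashtag call, at 5.77 and 7.66 CPM in hashtags 1 and 2, and 0 in conventional dendritic-like cells, where the level in high Nras hepatocytes was at least 43.4-fold higher. Timp1 was at 0 there too, at least 16.6-fold lower than in high Nras hepatocytes. Thbs1 had 5 UMIs in endothelial-like cells and 0 in macrophage-like, T or NK-like and B-like cells. Few UMIs are a weak bound where a type held few in all. Macrophage-like cells held 5 Timp1 UMIs of 274135, which did not differ past the threshold from high Nras hepatocytes (-0.95 ± 0.823, SE; edgeR adjusted p = 0.468). B-like cells held 120552 UMIs, and their 0 counts of Timp1 and Thbs1 were not called either (adjusted p = 0.126 and 0.135). F3, which was not tested over types after the filter on low counts, had 1 UMI in all 6 types together. Conventional dendritic-like cells had 0 members higher and 6 lower, against 21.8% and 19.9% of all genes, and T or NK-like cells 0 and 5, against 8.91% and 17.1%.

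Over the 24 sums by hashtag of bins and types, among 12627 genes, the genes most like each member were listed by Pearson's r of log2(CPM + 1). Spp1 was most like Igfbp1, Clu and Tm4sf4 (r = 0.973, 0.961 and 0.960), Plat most like Rap1gap, Irx3 and Fst (r = 0.953, 0.914 and 0.902) and Thbs1 most like Cxcl17, Krt20 and Cxcl5 (r = 0.969, 0.963 and 0.962). F3 was nearest to Bdnf, Gpr39 and Myrf (r = 0.975, 0.973 and 0.971) and Timp1 to Slc6a8, Sh3bgrl2 and 1810055G02Rik (r = 0.937, 0.910 and 0.904). Mmp14 was nearest to Epas1, Dock1 and Camk1 (r = 0.951, 0.944 and 0.925), Plau to Lair1, Ifitm10 and Csf3r (r = 0.902, 0.898 and 0.890), Cd44 to Eif5a, Isyna1 and Rbpj (r = 0.860, 0.853 and 0.848) and Plaur to Ogfod3, Gga2 and Pold4 (r = 0.824, 0.765 and 0.751). Among the members, Plat, F3, Thbs1 and Spp1 were alike, with r between 0.816 and 0.877, while Plaur and Cd44 had r = -0.311 with each other over these sums although both followed Nras in hepatocytes. The sums share mice, 1 library and hepatocyte RNA, and the values are descriptions of likeness.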

How the data were processed

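The data were 1 transcript library and its hashtag library, from a pool of 3 mice. The authors deposited raw UMI counts per gene and barcode, and counts per hashtag and barcode, with no normalization. The labels name Cell Ranger 2.1.1 and the build mm10, and the header of the gene table names version 3.0.2.

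The members and the gene lists were chosen with earlier results of these data known. Barcodes entered when they held 500 or more genes and 1000 or more UMIs, with mitochondrial UMIs below 20%. Hashtags were called with HTODemux (Seurat 5.3.0, positive quantile 0.99): 830, 1970 and 985 kept cells were called for hashtags 1, 2 and 3, 163 were doublets of different tags and were left out, and 6272 had no call. Doublets within a mouse remain. A rule on tag ratios gave the same tag in 3639 of 3639 kept cells called by both. Hepatocytes under 10000 UMIs, 6159 cells, were left out of the bins. Nras and mVenus were kept out of library sizes and tests.

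Counts were summed per hashtag and Nras bin (at least 5 cells) or cell type (at least 10 cells) and tested with edgeR 4.0.16 (R 4.3.3; TMM, filterByExpr, quasi-likelihood F-test, hashtag as a block, Benjamini-Hochberg adjustment over all genes tested, threshold 0.05). The block pairs sums of the same mouse, as the hashtag marks 1 animal. DESeq2 1.42.0 was an alternative. CPM is UMIs per 1e+06 UMIs of the sum. Poisson and binomial 95% intervals are exact and cover counting error only, and the floor for a count of 0 is 3 counts. Each bin is compared within mice, so p-values rest on 2 mice in 1 library. The edgeR test moderates the spread of each gene with that of all genes tested. Its p-values therefore do not measure the spread between these mice alone. The edgeR steps were tested on simulated data. Gene positions are from GENCODE vM21 (GRCm38), and 60 of 60 genes of the wider list were found, Ccn1 and Ccn2 by an older symbol. 1 gene of that list is not reported here by name. Named genes were the 9 members, that list and, for each member, the 3 genes of highest correlation.

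The alternatives were DESeq2, no filter on low counts, no block, each hashtag left out, other limits on UMIs, Nras, mitochondrial share and the hepatocyte gate, thinning to 10000 UMIs, ranking by mVenus, cells with under 0.1% of other markers and the other hashtag rule. 2 were chosen after seeing the data: baseline cells matched to the high bin of the same hashtag in UMIs per cell, and sums without the 3 cells of most member UMIs.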

Additional observations from a re-analysis of the deposited data

How the results depend on the processing

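Of 118 values of single members under an alternative with a test (high against baseline), 110 kept their direction and side of the threshold or stayed uncalled, 8 kept their direction and lost the call, and 0 reversed a call. The 8 were 6 for F3, and 1 each for Spp1 (other Nras limits, adjusted p = 0.0838) and Plaur (hepatocyte gate of 10%, 2.40, adjusted p = 0.0638, 1 residual degree of freedom). The count of members called higher was 7, and between 5 and 7 under every alternative run.

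The count of all genes called moved more, and the cause was not tested. From baseline to high it was 2703, and 1464 with DESeq2, 1093 with thinning, 698 with the 10% gate and 1753 with matched baseline cells. From baseline to low it was 574, and 1079 with no filter, 298 with DESeq2, 284 with thinning, 10 with the other Nras limits, 10 with mVenus ranking, 208 with the 10% gate and 29 with baseline cells matched to the high bin. From low to intermediate it was 222, and 705 with no filter, 53 with thinning, 114 with mVenus ranking, 45 with the 10% gate and 452 in cells with few other markers. From intermediate to high it was 1, and 184 with no filter, 20 with DESeq2, 0 at 2000 or 5000 UMIs per cell, with thinning or with the other hashtag rule, 3 with the other Nras limits, 215 with mVenus ranking, 158 with the 10% gate and 5 in cells with few other markers. Without the replicate block of hashtags the counts were 2180, 235, 38 and 0 for the 4 comparisons, and 35 against 33 for members in other types, and among the members in hepatocytes the calls lost were those of F3, of Timp1 from baseline to low and of Plaur from low to intermediate.

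Leaving out hashtag 3 gave 2713, 579, 221 and 1 genes. Leaving out hashtag 1 or 2 leaves no residual degrees of freedom for the bins, so the ratio of the remaining mouse is a value with no test: for Plat it was 2.30 or 3.40 on the log2 scale, for Spp1 2.98 or 2.13, and for Mmp14 0.19 or -0.44. For members in other types, leaving out a hashtag gave 23 to 32 calls. Hepatocytes of hashtag 3 were too few to describe their rise, and Plau and F3 were limited by their counts.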

Other observations

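The cells with the most Nras were not all within the hepatocyte gate. There were 11 cells of at least 10000 UMIs with Nras at 3000 CPM or more and under 1% from the 5 liver genes, 3 of them with biliary markers and 8 with no type, at a median of 0.314% of UMIs from the 5 genes. Their Nras was at 13150 CPM, against 6635 CPM in the 134 cells within the gate. Plaur was at 414 CPM in them (Poisson 95% interval 363 to 472), against 123 CPM within the gate, and Cd44 at 541 CPM (482 to 606), against 147 CPM. F3 was at 129 CPM against 8.28 CPM, and Plat at 185 CPM against 75.3 CPM. Single cells weighed on these sums: 1 cell held 106 of the 229 Plaur UMIs, 1 held 43 of the 71 F3 UMIs and 1 held 63 of the 102 Plat UMIs. Plau was found in 1 of the 11, with 5 UMIs. Mmp14 was at 25.3 CPM against 28.5 CPM and Spp1 at 12354 CPM against 16599 CPM. These cells were chosen after their values were seen, and no test was run on them.

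Types with too few cells for a sum held further members. The 18 stellate or fibroblast-like cells had 83.0 CPM of F3, 135 CPM of Timp1 and 93.3 CPM of Mmp14, from 8, 13 and 9 UMIs. The 6 neutrophil-like cells had 629 CPM of Plaur and 692 CPM each of Thbs1 and Cd44, from 10, 11 and 11 UMIs. The 17 plasmacytoid dendritic-like cells had 235 CPM each of Plaur and Cd44, from 20 UMIs each. The 11 biliary-like cells had 563 CPM of Plaur, 802 CPM of Cd44, 309 CPM of Plat and 282 CPM of F3, and 3 of them are among the high Nras cells above. Together the 11 cells were at 12396 CPM of Nras, and 2 cells of hashtag 1 held 133781 of their 259272 UMIs. Biliary identity and high Nras cannot be told apart in these levels.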
